A study of Mus musculus with 6 samples.

Results

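The receptors that let platelets sense extracellular nucleotides were examined in cultured mouse megakaryocytes with and without a knock down of Gata-1. The members were 8 genes for ADP, ATP, nucleotide sugar and adenosine receptors and for an enzyme that breaks down ADP. They were listed by name, with earlier results of these data known: P2ry12, P2ry1, P2rx1, P2rx4, P2rx7, P2ry14, Adora2a and Entpd1. Every probe set (a group of short array probes read as 1 signal) whose annotation names a single one of these genes was taken. This gave 15 probe sets of 45037 on the array, for 7 of the 8 genes, since Adora2a has no probe set named in the annotation and was not analysed here.

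Both groups were megakaryocytes, the large marrow and fetal liver cells that shed platelets, grown in differentiation medium from progenitors of fetal livers of embryonic day 13.5 and collected on a gradient of BSA, a serum protein. Per the titles, 3 samples (A, B and C) are a Gata-1 knock down and 3 (A, B and C) are Gata-1 wild type. Total RNA of each sample was read on 1 array. The labels used here name no allele, strain or knock down method and do not say whether the samples were separate cultures or animals, and so the p-values here reflect the variation among 6 arrays, part of which may be technical.

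ADP is stored in the dense granules of platelets and released on activation, and it acts on 2 G protein-coupled receptors on the same cell. The P2Y1 receptor couples to Gq and starts calcium release and shape change, while the P2Y12 receptor, the target of clopidogrel, couples to Gi, lowers cyclic AMP and sustains aggregation. ATP opens the P2X channels, the ectonucleotidase CD39 (Entpd1) on nearby cells removes ATP and ADP, and adenosine, formed from AMP, inhibits platelets through receptors that raise cyclic AMP. GATA1, the factor knocked down, is a zinc finger transcription factor that binds the DNA core GATA and is needed for megakaryocyte maturation.

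The pair of ADP receptor genes had the largest falls among the members, so the DNA just before their RefSeq start sites is shown. That of P2rx1, which fell by much less, is given as an example of a window with GATA words. Each line is the 250 bases before the start site in GRCm38.p6, read 5′ to 3′ on the gene's own strand, with GATA words in capitals where there are any. P2ry12 is chr3:59262986-59263235 on the minus strand, P2ry1 is chr3:61002535-61002784 on the plus strand, and P2rx1 is chr11:72998895-72999144 on the plus strand.
P2ry12: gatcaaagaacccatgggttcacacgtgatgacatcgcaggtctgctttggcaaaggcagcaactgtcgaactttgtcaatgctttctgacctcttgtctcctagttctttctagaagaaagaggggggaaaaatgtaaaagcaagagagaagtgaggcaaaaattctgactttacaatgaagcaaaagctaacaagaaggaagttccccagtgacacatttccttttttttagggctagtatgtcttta
P2ry1: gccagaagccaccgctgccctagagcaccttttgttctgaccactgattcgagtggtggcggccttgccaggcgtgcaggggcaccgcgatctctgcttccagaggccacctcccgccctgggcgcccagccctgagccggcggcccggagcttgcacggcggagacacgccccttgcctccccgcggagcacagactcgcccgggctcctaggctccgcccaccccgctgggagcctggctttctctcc
P2rx1: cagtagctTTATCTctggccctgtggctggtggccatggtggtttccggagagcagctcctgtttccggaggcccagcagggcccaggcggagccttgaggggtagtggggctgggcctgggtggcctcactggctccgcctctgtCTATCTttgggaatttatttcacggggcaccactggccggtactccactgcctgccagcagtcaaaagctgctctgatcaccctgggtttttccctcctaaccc
A GATA word was AGATAA or AGATAG or TGATAA or TGATAG on either strand; overlap with other motifs was not examined. Of 32851 RefSeq start site windows of this length, 26.5% held at least 1. The windows of P2ry12 and P2ry1 held 0, and that of P2rx1 held 2, both on the opposite strand, at positions -242 and -104 from the start. Among all 12 windows listed for 7 member genes, 4 held a GATA word, in P2rx1, P2rx7 and P2ry14. The windows of P2rx4 and Entpd1, not printed here, held 0, like those of P2ry12 and P2ry1. A match is a description of these letters, and a window without one says nothing about binding by the factor there or elsewhere.

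Across the series the arrays were alike in scale, with a 2% trimmed mean signal of 500 on each. The middle signal was 111.3 to 137.8 on the knockdown arrays and 101.6 to 104.4 on the wild-type arrays. The highest of 27 bacterial control probe sets was used here as the background of an array. It was 82.2, 132 and 79.8 on knockdown A, B and C and 65.8, 65.3 and 60.7 on wild type A, B and C. Knockdown B stood apart in this, and a signal of a given size is more readily within background on a knockdown array. Gata1 itself read 153.5, 143.3 and 194.7 in knockdown A, B and C and 8246.5 to 8723.7 in wild type, as the labels say. Of 31526 probe sets tested with limma, 30.4% passed a Benjamini-Hochberg adjusted p of 0.05, 14.3% as lower in knockdown and 16.1% as higher. Of all calls, 52.9% were rises, against 60.0% with the values as deposited and 32.9% with arrays centred on their medians. The median log2 fold change of all tested probe sets was 0.04 here, 0.15 with the values as deposited and -0.05 with centred arrays, so small changes depend on the scaling.

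Of the 15 member probe sets, 11 passed the filter on dim signals and were tested, 8 of these fell in knockdown, 0 rose and 3 did not pass. Over all 31526 probe sets tested, 14.3% were lower and 16.1% higher. The 8 that fell belong to 6 genes: P2ry12, P2ry1, P2rx1, P2rx4, P2rx7 and Entpd1. The median log2 fold change of the 11 was -0.65, against 0.04 over all probe sets tested. At an unadjusted limma p under 0.05 the counts were the same, 8 lower and 0 higher. No member rose under any of the 15 other settings compared, and 7 or 8 fell. With bulk RNA, fewer cells of a type and less RNA per cell cannot be told apart.

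**Figure D1:**
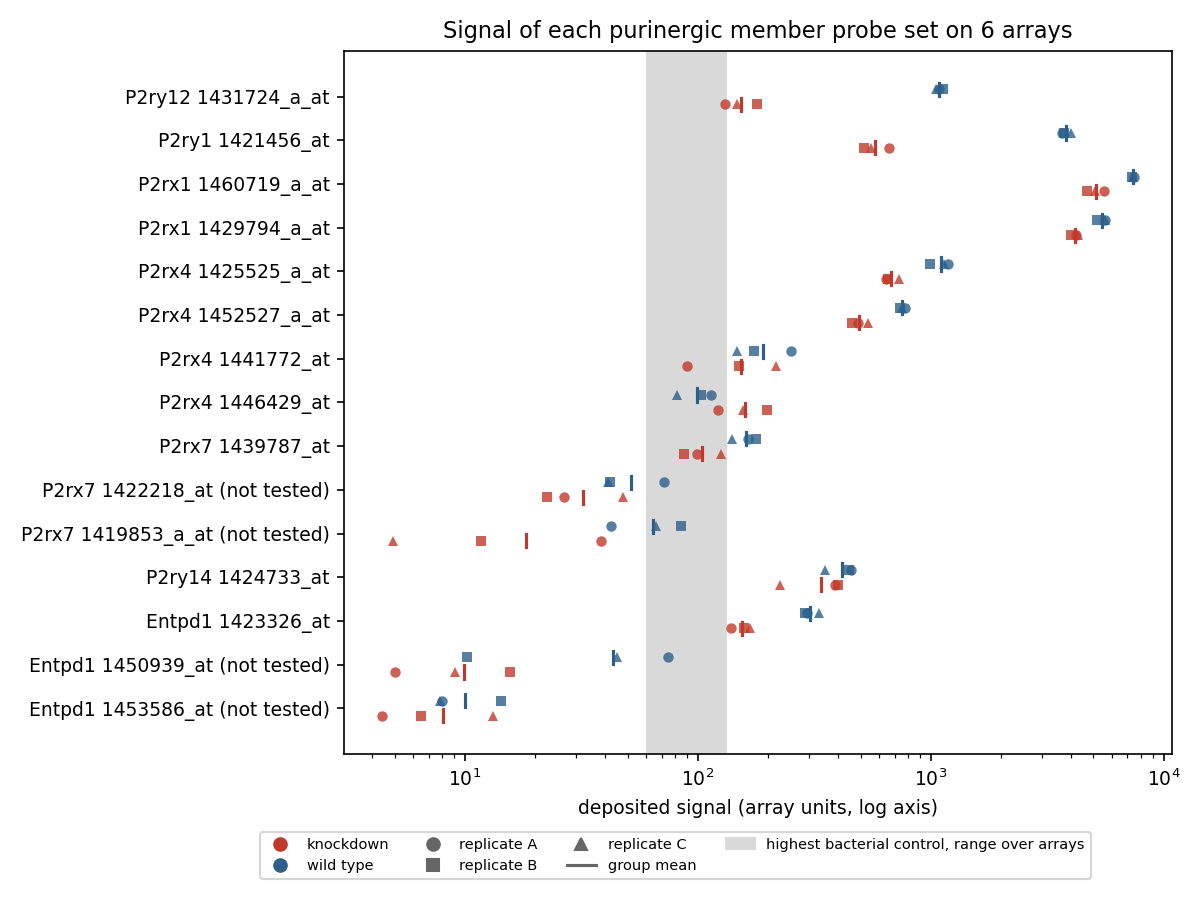
Deposited signal of each of the 15 member probe sets on the 6 arrays (array units, log axis), with knockdown in red, wild type in blue, a shape for each replicate letter and a short bar at each group mean; the grey band spans the highest bacterial control signal of the 6 arrays, 60.7 to 132. P2ry12 and P2ry1 show the widest gaps between the groups, and the 4 probe sets that were not tested lie mostly below the band.

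P2ry12, the Gi-coupled ADP receptor gene, has 1 probe set, which read 131.1, 179.3 and 147.1 in knockdown A, B and C and 1090.5, 1128.0 and 1049.8 in wild type A, B and C. Every knockdown value lay far below every wild-type value, and above the bacterial controls of its own array. The group means were 153 ± 24.5 and 1089 ± 39.1 (SD, n = 3). P2ry12 was 6.52-fold lower in knockdown, at -2.71 ± 0.11 (log2, SE; limma adjusted p 7.50e-08). Among the 14230 genes tested, each by its brightest probe set, 17.1% were called lower and 18.3% higher, and P2ry12 had the rank of 50 from the largest fall.

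P2ry1, the Gq-coupled ADP receptor gene, also has 1 probe set, which read 664.1, 515.3 and 553.8 in knockdown and 3677.7, 3752.0 and 3995.5 in wild type. The groups did not overlap, and knockdown P2ry1 was still several times above the bacterial controls on each array. Means were 578 ± 77.2 and 3808 ± 166 (SD, n = 3), which is 6.35-fold lower or -2.67 ± 0.09 (log2, SE; limma adjusted p 2.45e-08), with a rank of 54. The falls of the 2 ADP receptor genes were close in size, but knockdown P2ry12 read nearer to the bacterial controls, so its fall depends more on the offset. With offsets of 1 and 100 it was -2.95 and -2.31, and that of P2ry1 was -2.73 and -2.53. Within each array the log2 signal of P2ry12 minus that of P2ry1 was -2.04 to -1.54 in knockdown and -1.84 to -1.67 in wild type. This within-array difference changed by -0.04 between the groups (exact permutation test, two-sided, p = 0.80, adjusted p 1 over 4 pairs, n = 3 each), and with offsets of 1 and 100 by -0.22 and 0.22, so its sign depends on the offset. With 3 against 3 the test cannot go below 0.1, and the result does not show that the falls were equal.

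P2rx1 encodes the ATP-gated channel of platelets that admits calcium. Its brighter probe set (1460719_a_at) read 5546.4, 4700.1 and 5082.9 in knockdown and 7483.6, 7318.6 and 7392.0 in wild type. The other (1429794_a_at) read 4214.6, 3997.3 and 4290.1 against 5592.9, 5191.7 and 5617.4. In both probe sets all knockdown arrays were lower than all wild-type arrays, by a modest step. The log2 fold changes were -0.45 ± 0.06 and -0.31 ± 0.05 (SE), 1.37-fold and 1.24-fold lower (limma adjusted p 0.000291 and 0.00108). With arrays centred on their medians they were -0.73 and -0.58, so the size of this fall depends on the scaling. Relative to P2rx1 on the same array, P2ry12 was lower in knockdown by a further -2.26 on the log2 scale, with values of -5.15 to -4.75 in knockdown and -2.71 to -2.64 in wild type that did not overlap (exact permutation p = 0.1, the smallest this design allows, adjusted p 0.2 over 4 pairs).

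P2rx4 encodes an ATP-gated channel common in macrophages and endothelium as well as in platelets, and it has 4 probe sets. The brightest (1425525_a_at) read 643.3, 657.4 and 734.0 in knockdown and 1190.5, 995.5 and 1140.8 in wild type, and 1452527_a_at read 486.2, 459.5 and 537.6 against 772.5, 741.5 and 749.3. Both fell without overlap between the groups, by -0.72 ± 0.10 and -0.65 ± 0.10 (log2, SE; limma adjusted p 0.000313 and 0.000533). The other 2, close to background, did not pass and differed in sign. Probe set 1441772_at read 90 to 217.5 in knockdown and 146.8 to 252.3 in wild type, groups that overlap (-0.47 ± 0.27, limma adjusted p 0.233). Probe set 1446429_at read 122.1 to 198.3 in knockdown, above 81.0 to 114.2 in wild type (0.35 ± 0.21, limma adjusted p 0.244), so the 4 probe sets of P2rx4 disagree in sign.

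P2rx7 encodes the channel that opens at high ATP and is best known for driving interleukin release from macrophages. Only 1 of its 3 probe sets passed the filter: 1439787_at read 98.8, 87.0 and 125.7 in knockdown and 164.9, 178.2 and 139.6 in wild type. The groups did not overlap, but the knockdown B value lay below that array's bacterial controls. The log2 fold change was -0.69 ± 0.21 (SE; limma adjusted p 0.0326), and this call was the least firm of the 8. It was lost under 8 of 16 alternatives, with adjusted p of 0.0158 to 0.121 over all 16. The 8 were the values as deposited, no filter on either scaling, the replicate block (adjusted p 0.0590) and leaving out knockdown B or any 1 of the wild-type arrays. The 2 untested probe sets read at most 47.7 in knockdown and at most 84.6 in wild type, and all their knockdown values were at or below background. With no filter, 1419853_a_at was called lower (-1.10, limma adjusted p 0.0415), while with signals floored at the bacterial controls it was at -0.07 and did not pass. P2rx4 minus P2rx7 within arrays changed by -0.02 between the groups (exact permutation p = 1, adjusted p 1 over 4 pairs), with -0.18 at an offset of 100 and 0.13 at an offset of 1, so its sign depends on the offset.

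P2ry14, the receptor for UDP-glucose found on neutrophils and on early blood progenitors, did not pass the test. Its probe set read 388.8, 400.6 and 225.8 in knockdown and 454.1, 444.5 and 352.1 in wild type, with knockdown A and B inside the wild-type range. The log2 fold change was -0.42 ± 0.20 (SE; limma adjusted p 0.153), with a 95% interval of -0.86 to 0.03, and it was not called under any of the 16 alternatives. P2ry12 lies near P2ry14 in the genome, and relative to it on the same array P2ry12 was lower in knockdown by -2.29, with -1.31 to -0.53 in knockdown and 1.16 to 1.44 in wild type (exact permutation p = 0.1, adjusted p 0.2 over 4 pairs).

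Entpd1 encodes CD39, the membrane enzyme that takes ATP and ADP down to AMP and so limits platelet activation. Probe set 1423326_at read 138.6, 157.2 and 167.6 in knockdown and 294.8, 288.0 and 329.8 in wild type. All knockdown values were near a single level and all wild-type values stood clear above them, with every array above its own bacterial controls. Means were 154 ± 14.7 and 304 ± 22.4 (SD, n = 3), which is 2.01-fold lower or -1.0 ± 0.15 (log2, SE; limma adjusted p 0.000540), called under all 16 alternatives. The other 2 probe sets of the gene were dim, at 4.4 to 15.6 in knockdown and 7.8 to 74.8 in wild type, and were not tested.

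**Figure D2:**
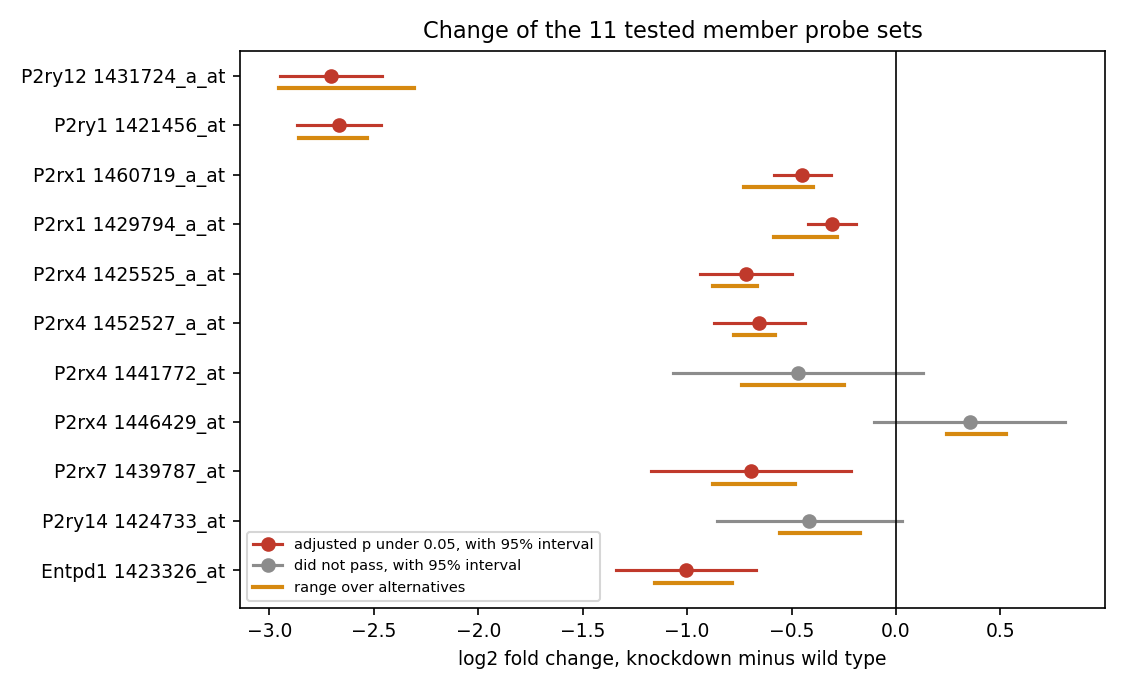
Log2 fold change (knockdown minus wild type) of the 11 tested member probe sets, as points with 95% intervals of the limma fit, red where the adjusted p was under 0.05 and grey where not; the orange line under each spans its values over the alternatives. P2ry12 and P2ry1 lie near -2.7, the other called probe sets between -1.0 and -0.31, and the 3 grey intervals cross 0.

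The genes whose 6 values ran closest to those of each member were found by the Euclidean distance between log2 values centred per gene, a description over 6 arrays of 2 groups. For P2ry12 they were S100a4, the platelet beta-tubulin gene Tubb1 and the chemokine gene Ccl9, at distances of 0.184, 0.192 and 0.229. For P2ry1 they were Clec4g, the chemokine gene Ccl6 and the calpain gene Capn2, at 0.147, 0.164 and 0.171, with log2 fold changes of -2.70, -2.71 and -2.75. P2rx1 ran closest to Ppp1r2, Gin1 and 1300002E11Rik (0.0494 to 0.0791), P2rx4 to Tnfrsf21, Pcgf5 and Clec4a3 (0.119 to 0.126) and Entpd1 to Cerk, Stat2 and Prkaa2 (0.135 to 0.157). For P2rx7 they were Cdr2, Hs3st1 and Zfp672 (0.109 to 0.201), and for P2ry14 Nsmaf, Plppr5 and Nhlh1 (0.177 to 0.205).

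Of the other receptors of nucleotides, adenosine or related ligands, 16 were listed, 13 have a named probe set and 8 were tested, of which 2 fell, 1 rose and 5 did not pass. The shares over all genes were 17.1% lower and 18.3% higher. P2rx5, an ATP-gated channel, read 45.8, 40.5 and 70.5 in knockdown, all within background, and 202.6, 209.0 and 261.9 in wild type. It was at least 2.23-fold lower, the wild-type mean being set against the bacterial controls (limma adjusted p 0.000221). P2ry6, the UDP receptor of macrophages, read 166.9, 171.5 and 106.4 against 321.9, 433.1 and 344.3 and fell by 1.30 ± 0.19 on the log2 scale (SE; limma adjusted p 0.000411). Gpr171, a relative of P2ry12, read 782.1, 389.2 and 732.1 in knockdown and 192.6, 242.9 and 177.6 in wild type, a rise of 1.33 ± 0.24 (limma adjusted p 0.00173). The ADP receptor gene P2ry13 read 91.0, 173.6 and 95.4 against 85.1 to 92.7 (0.11 ± 0.23, limma adjusted p 0.771). P2ry4 and Adora3, above the controls on all wild-type arrays only, had log2 fold changes of -0.18 ± 0.25 and -0.32 ± 0.23 and did not pass (limma adjusted p 0.649 and 0.352). Of the 5 that were too dim to test, P2rx2, P2rx3, P2ry10, Gpr17 and Gpr34, all were within background in both groups.

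Around the chromosome 3 members, neighbouring genes moved in opposite directions. In the RefSeq order P2ry14, P2ry13 and P2ry12 lie nested within the mediator subunit gene Med12l, as does Gpr171. Med12l read 4659 ± 169 in knockdown and 3304 ± 41.5 in wild-type samples (SD, n = 3) and rose by 0.57 ± 0.05 (SE; limma adjusted p 1.86e-05). Within this 1 host gene, then, P2ry12 fell, Gpr171 rose, and P2ry13 and P2ry14 did not pass. Next to P2ry1, the splicing factor gene Mbnl1 did not pass, at 0.08 ± 0.06 (log2; limma adjusted p 0.369), while Rap2b, a small GTPase gene on the other side, fell by 0.75 ± 0.08, from 3053 ± 25.8 to 1745 ± 209. The rise of Med12l was 0.30 to 0.59 over 15 alternatives, that of Gpr171 1.13 to 1.67, and the fall of Rap2b -1.0 to -0.67, all with the call kept. The annotation used here gives no probe positions, so signal from a host gene and a gene nested in it could not be separated further.

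P2rx7 and P2rx4 are direct neighbours on chromosome 5. Their log2 fold changes were -0.69 and -0.72, while the next genes on either side, Ift81 (0.06 ± 0.37) and the kinase gene Camkk2 (0.55 ± 0.21), did not pass (limma adjusted p 0.936 and 0.0848; Camkk2 was called higher under 4 of 15 alternatives). Leaving out the members themselves, 38 genes lie within 3 places of a member and 27 were tested, of which 6 fell, 7 rose and 14 did not pass (median log2 fold change 0.06), beside 17.1% lower and 18.3% higher over all genes. Over the 15 alternatives 2 to 7 of them fell and 3 to 10 rose, with 3 rises under centred arrays.

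**Figure D3:**
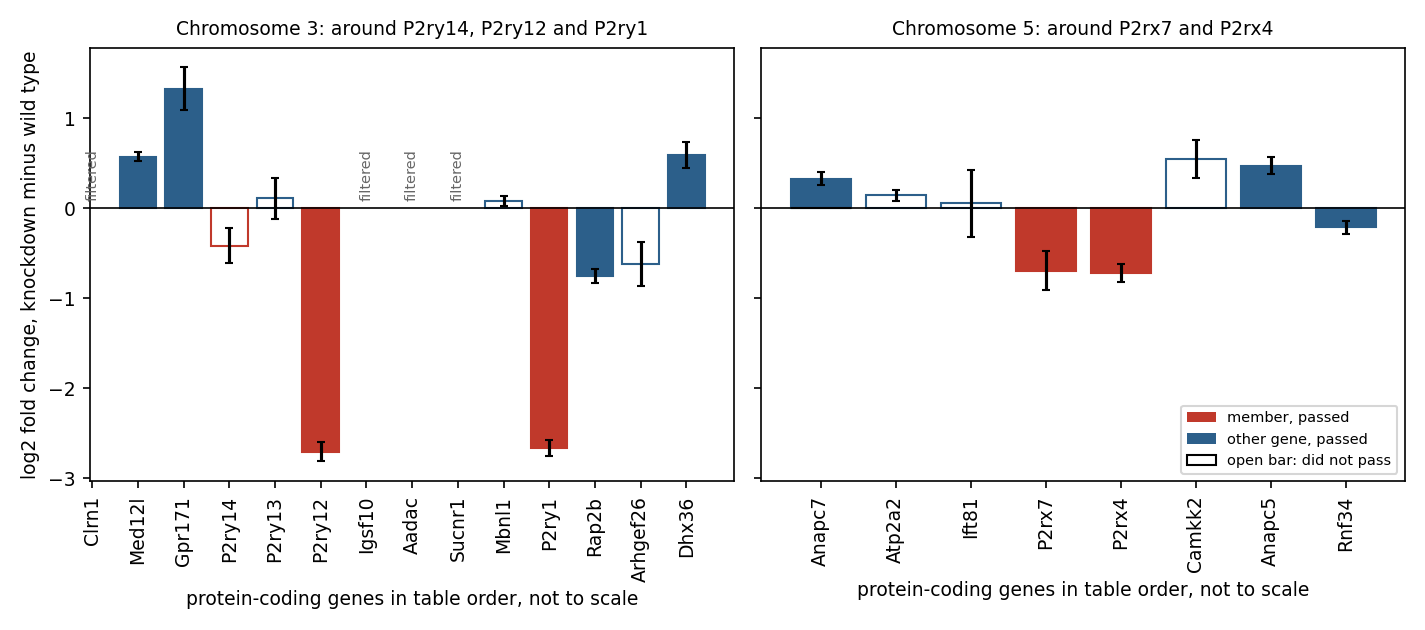
Log2 fold change (bars, with SE of the limma fit) of the protein-coding genes around P2ry14, P2ry12 and P2ry1 on chromosome 3 and around P2rx7 and P2rx4 on chromosome 5, in table order and not to scale; members are red, other genes blue, and open bars did not pass. P2ry12 and P2ry1 reach -2.71 and -2.67 while Med12l and Gpr171 stand above 0; genes marked filtered were too dim to test, and genes with no probe set named in the annotation are left out.

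In the wider nucleotide pathway, 121 further genes were listed and 102 tested by 1 probe set each: 39 fell, 12 rose and 51 did not pass. These are 38.2% and 11.8% of those tested, against 17.1% and 18.3% of all genes, with a median log2 fold change of -0.16 against 0.03. With arrays centred on their medians 44 fell and 4 rose.

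For the Gq arm, which links P2Y1 to calcium and to Rap1, 18 genes were tested, of which 5 fell, 4 rose and 9 did not pass. Over all genes 17.1% were lower and 18.3% higher, and no list was tested as a set. Rasgrp2, the calcium-activated exchange factor that turns on Rap1 in platelets, went from 6625 ± 118 to 847 ± 74.7 (SD, n = 3), or -2.90 ± 0.08 (log2, SE; limma adjusted p 6.80e-09), with all 4 of its tested probe sets lower. The phospholipase gene Plcb1 rose by 0.89 ± 0.10, on 1 of 5 tested probe sets, and the calcium release channel gene Itpr2 and the kinase gene Prkcb fell by 0.87 ± 0.15 and 0.84 ± 0.10, on 2 of 5 and 1 of 2 tested probe sets. The G protein gene Gnaq itself had -0.07 ± 0.08 and did not pass (limma adjusted p 0.573), though with centred arrays it was called at -0.29. Small calls in this list depend on the scaling: Prkca and Prkcd, at 0.16 each, were -0.13 and -0.12 with centred arrays, and Rap1b, at -0.15, was 0.11 with the values as deposited, none of them called there.

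For the Gi arm, which links P2Y12 to phosphoinositide 3-kinase and to Rap1, 16 genes were tested, of which 4 fell, 2 rose and 10 did not pass. This stands beside 17.1% lower and 18.3% higher over all genes. Rasa3, the GTPase-activating protein that shuts off Rap1, fell from 12025 ± 245 to 5280 ± 168 (log2 fold change -1.15 ± 0.04, limma adjusted p 4.33e-08). The platelet Gi family gene Gnaz fell by 1.15 ± 0.06 and the kinase adaptor gene Pik3r5 by 0.79 ± 0.14, while the kinase gene Pik3cg rose by 0.76 ± 0.07, on 1 of its 2 tested probe sets, and the kinase gene Akt1 by 0.47 ± 0.09, a call lost with centred arrays (0.24). Gnai2, the main Gi subunit of platelets, was called at -0.18 ± 0.05, a call lost under 5 of 15 alternatives.

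For the Gs and cyclic AMP arm, on which adenosine and prostacyclin act and which P2Y12 opposes, 23 genes were tested, of which 8 fell, 3 rose and 12 did not pass. Of all genes, 17.1% were lower and 18.3% higher. The adenylyl cyclase genes Adcy5 (2 of 3 tested probe sets) and Adcy6 had log2 fold changes of -1.57 ± 0.10 and -1.17 ± 0.08, and the prostacyclin receptor gene Ptgir had -1.21 ± 0.06, from 2670 ± 72.6 to 1115 ± 51.0. Prkaca, a catalytic subunit of protein kinase A, fell by 0.59 ± 0.13. Another cyclase gene, Adcy7, rose by 0.51 ± 0.06 (named after its value was seen), a call lost under 1 of 15 alternatives. With centred arrays 10 genes of this list fell and 0 rose.

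Among enzymes and carriers listed for the breakdown and uptake of nucleotides and nucleosides, 13 were tested, of which 6 fell, 0 rose and 7 did not pass. The shares of all genes were again 17.1% lower and 18.3% higher. The list is not limited to proteins that act outside the cell. The counts were 4 lower and 1 higher for the values as deposited, and 1 was higher at an unadjusted limma p under 0.05. Nt5e, which encodes CD73, the enzyme that turns AMP into adenosine after CD39, fell from 1445 ± 155 to 660 ± 7.99 (log2 fold change -1.11 ± 0.09, limma adjusted p 1.01e-05). The purine phosphorylase gene Pnp fell by 0.62 ± 0.07, Entpd7 by 0.60 ± 0.16, on 2 of 4 tested probe sets and lost under 2 of 15 alternatives, and Entpd2 by 0.55 ± 0.18, a call lost under 10 of 15 alternatives. Of 8 genes for the storage and release of nucleotides, 3 fell, 0 rose and 5 did not pass, 2 of them higher at an unadjusted limma p under 0.05. The ATP release channel gene Panx1 fell from 2101 ± 93.8 to 1007 ± 173 (-1.04 ± 0.11, limma adjusted p 6.13e-05), Slc35b1 by 0.42 ± 0.07 and the dense granule transporter gene Abcc4 by 0.25 ± 0.07, the last lost under 4 of 15 alternatives. The vesicular nucleotide transporter gene Slc17a9 had 0.38 ± 0.17 and did not pass (limma adjusted p 0.129), though with the values as deposited it was called higher (0.53, limma adjusted p 0.0403).

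Among regulators of these receptors, 8 were tested, of which 6 fell, 1 rose and 1 did not pass, beside 17.1% lower and 18.3% higher over all genes. Rgs10, which shortens G protein signals, fell by 0.81 ± 0.04 and the receptor kinase gene Grk5 by 0.79 ± 0.09. Rgs18 rose by 0.21 ± 0.04 on 1 of 2 tested probe sets, a call lost under 2 of 15 alternatives (0.02 with centred arrays), and Grk3, at -0.56 ± 0.24, did not pass. Arrb1, a beta-arrestin gene, fell by 0.43 ± 0.07 and Rgs2 by 0.40 ± 0.09, on 3 of 4 tested probe sets. Of 8 genes linked to P2X7 in inflammasome signalling, 5 fell, 1 rose and 2 did not pass. The rise was that of the adaptor gene Pycard, 0.34 ± 0.07 on 1 of 3 tested probe sets, a call lost with centred arrays (0.12). Casp1, which no longer exceeded the bacterial controls in 2 knockdown samples, was at least 2.98-fold lower, Il18 fell by 1.77 ± 0.23, Il1b by 1.39 ± 0.08 and the pore-forming gasdermin gene Gsdmd fell by 1.06 ± 0.34, the last lost under 7 of 15 alternatives.

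**Figure D4:**
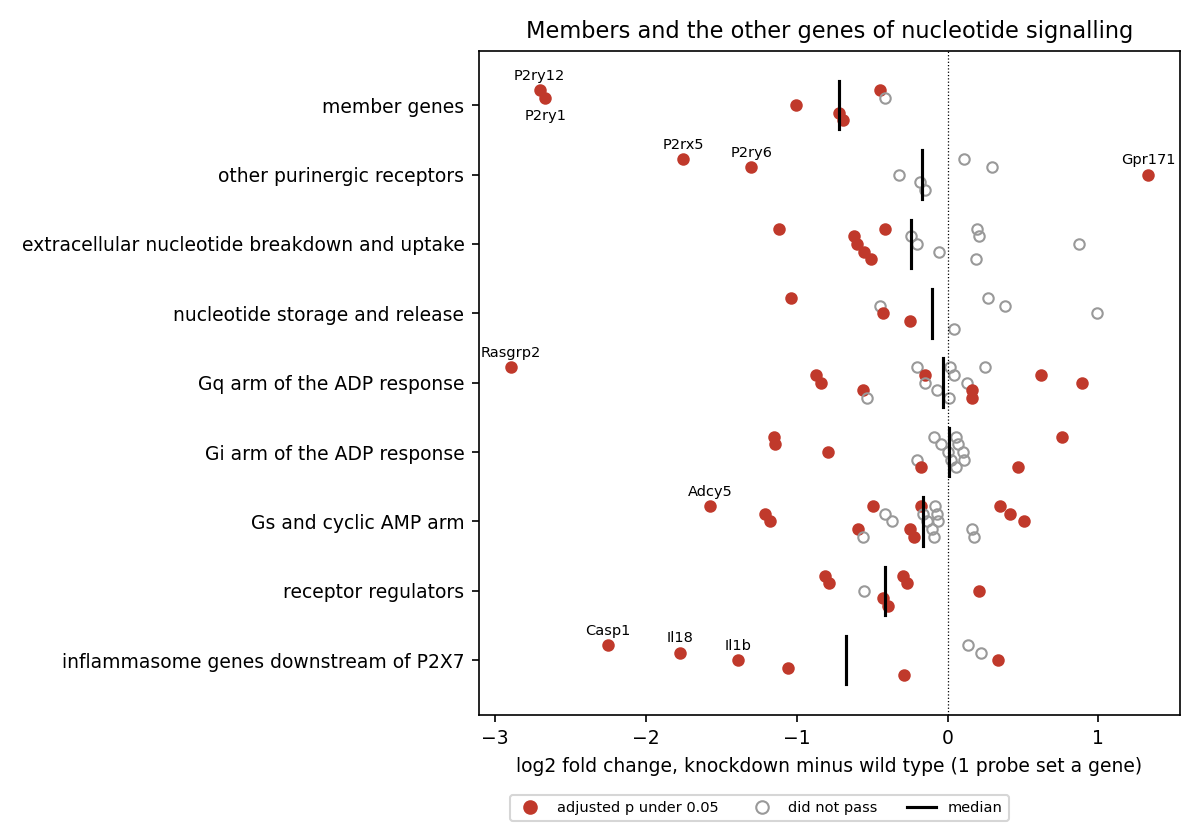
Log2 fold change (knockdown minus wild type) of the 7 member genes and of the tested genes of 8 lists of nucleotide signalling, 1 probe set a gene, filled red where the adjusted p was under 0.05 and open grey where not, with a black bar at each list's median. P2ry12 and P2ry1 lie at the far left with Rasgrp2, and Gpr171 lies at the far right.

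Several of these genes are also expressed by myeloid cells, whose markers were lower in knockdown. Over all genes 17.1% were lower and 18.3% higher. Of 12 tested macrophage markers 10 fell and 0 rose (median log2 fold change -1.39), and the summed signal of 15 markers was 7830 to 7917 in knockdown and 20369 to 20913 in wild type. Of these, Cd163, Timd4 and Marco were within background in both groups, while Csf1r and Adgre1 read 6939 ± 115 and 2311 ± 161 in wild type and 2476 ± 82.9 and 828 ± 48.0 in knockdown. Among neutrophil and monocyte genes, 9 of 12 fell and 0 rose (sums 4097 to 4289 and 12567 to 13425), with none within background in either group. Of 13 mast cell and basophil markers 8 fell and 2, Gata2 and Kit, rose (sums 9027 to 9900 and 7428 to 8096). Gata2 made up most of the knockdown sum, its mean signal being 7142 there against 2480 for wild type. The higher knockdown sum therefore does not reflect the 8 markers that fell. Of the 13, 8 were within background in knockdown and 0 in wild type, by controls that were higher on the knockdown arrays. These are not the same 8 as those that fell. They include Tpsab1, Ms4a2 and Fcer1a, which did not pass, and Fcer1a had means of 80.3 in knockdown and 54.4 in wild type. Of 9 endothelial markers 4 fell and 3 rose. Cdh5 was within background on all knockdown arrays and on 2 wild-type arrays, and did not pass (0.09 ± 0.36, limma adjusted p 0.893). The part of these cells in the falls of the member genes, P2ry12 and P2ry1 included, and of P2ry6, Nt5e and the inflammasome genes was not tested.

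Of 12 megakaryocyte markers 10 fell, 0 rose and 2 did not pass (median -0.51 on the log2 scale), and their summed signals were 116127 to 141637 in knockdown and 168873 to 181350 in wild type, and all 12 were above background in both groups. Tubb1, at -2.61 ± 0.06, had the largest fall in this list, next to -2.71 for P2ry12 and -2.67 for P2ry1, while the integrin gene Itga2b had -0.03 ± 0.06 and did not pass (limma adjusted p 0.812). Of 8 progenitor markers 5 rose and 1 fell, and of 8 red cell markers 3 fell and 1 rose. The 7 tested lymphoid markers included 1 that fell. Of the 10 with a probe set, 6 were within background in knockdown and 4 in wild type, by controls that were higher on the knockdown arrays. At an unadjusted limma p under 0.05, 0 genes of the megakaryocyte, macrophage, neutrophil and monocyte or lymphoid lists were higher. Kit and Gata2 stand in 2 of these lists.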

How the data were processed

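RNA of 6 samples was read on 1 array each. Groups and replicate letters come from the sample titles. The deposited table gives intensity values on a linear scale, as the values show; what the authors did beyond a common scaling (the same trimmed mean on each array), such as the software, is not given in the sources used here. Intensity was tested as log2(signal + 32) after quantile normalization, which removes a shift common to all genes. Control probe sets (64) and those with a mean log2 value below the 30th percentile were left out, leaving 31526. Groups were compared with limma 3.58.1 in R 4.3.3 (lmFit, eBayes with an intensity trend, two-sided, Benjamini-Hochberg over all probe sets tested, adjusted p of 0.05). The fit was tested on simulated data with few probe sets changed, where it made no false call. It recovered 2.5%, 28.9% and 68% of changes of 0.5, 1 and 2 on the log2 scale. In the arrays 30.4% of probe sets were called, so these rates need not hold here. Failing the test does not show a lack of change.

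Probe sets take names from the platform annotation: 34945 have 1 symbol, 932 several and 9160 none, with symbols updated by gene number through a GRCm38.p6 table, used also for gene order. Of 225 list entries, 200 have a named probe set. Sequences are RefSeq's, and a start site window was matched for 7 of the 8 members. The members, lists and tests were chosen with earlier results of these data known. Named genes are the members, up to 4 called genes of each list with the largest changes, other receptors above the controls, neighbours and the 3 nearest patterns; Gnaq, Gnai2, Adcy7, Slc17a9, Prkca, Prkcd, Rap1b, Akt1, Rgs18, Pycard, Grk3 and the markers given singly were added after their values were seen. A gene is represented by its brightest probe set. Within background means at or below the highest of 27 bacterial controls on each array of the group, and folds against a group within background on at least 2 of 3 arrays are bounds. Arrays of 1 group had at most 0.233% of their signals in common. The number of arrays limits the precision.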

Additional observations from a re-analysis of the deposited data

How the results depend on the processing

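Other settings, 15 in all, were an offset of 1 or of 100, no further normalization (as deposited), arrays centred on their medians, no filter, a filter at the 50th percentile, the replicate block, no intensity trend, a floor at the bacterial controls and leaving out each of the 6 arrays; centring with no filter was added after the data were seen. The count of member probe sets lower stayed at 7 or 8 and that of members higher at 0. Of 176 values of tested members, 168 kept direction and side of the threshold and 8, all of P2rx7, lost the call. With arrays centred on their medians, 2609 probe sets were higher against 5062, and 4 pathway genes against 12, and Prkca and Prkcd turned to -0.13 and -0.12. With the values as deposited Rap1b turned to 0.11. The difference between P2ry12 and P2ry1 turned to 0.0502 both with the values as deposited and with centred arrays, and to 0.22 with an offset of 100, and that between P2rx4 and P2rx7 to 0.13 with an offset of 1; the cause was not tested. The labels do not say whether the letters A, B and C pair the samples. Same-letter correlations of deviations were -0.04, -0.02 and -0.01, which show no shared effect but cannot settle the question. With the replicate block 4166 probe sets were lower and 4591 higher, and 7 members lower. The filter kept the 4 dimmest member probe sets from being tested.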
